A study of Mus musculus with 6 samples.

Results

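The BCL2 family sets whether a cell keeps or loses the integrity of its mitochondria, and 10 of its genes were examined in thymocytes that lack the transcription factor Ets1. The 10 genes form a list by name, with the death-preventing members Bcl2, Bcl2l1, Mcl1 and Bcl2a1a, the BH3-only members Bcl2l11, Bid, Bmf and Bbc3, and the pore-forming effectors Bax and Bak1. Each gene was represented by the brightest probe set that the platform annotation gives to that gene alone, and 9 of the 10 had one, among 22180 genes measured in this way. Bax had no such probe set and was not analysed here. The arrays were 3 from Ets1-/- mice and 3 from wild-type (WT) mice, all C57BL/6, aged 5 to 6 weeks. The cells were CD4+ CD8+ double-positive (DP) thymocytes, fixed with formaldehyde and then enriched on magnetic beads, for CD8 first and CD4 second. Cohorts of litter mates served as replicates according to the labels. The sources used here do not say whether an array held RNA of 1 animal or several, or what the Ets1 allele removes. The labels name no cell type or promoter to which the loss of Ets1 is limited.

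In this family, BCL2, BCL-XL (the product of Bcl2l1), MCL1 and A1 (the product of the Bcl2a1 genes) hold the effectors BAX and BAK in check. BH3-only proteins such as BIM (Bcl2l11), BID, BMF and PUMA (Bbc3) are made or released under stress and bind the protective members, and some also engage the effectors directly. DP thymocytes are known for high BCL-XL and low BCL2, and mature thymocytes for the opposite, while BIM is needed for the death of thymocytes whose receptor binds self-antigen too strongly. A1 is found in several blood lineages, including myeloid cells, B cells and activated T cells.

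Mice carry several near-identical copies of the Bcl2a1 gene, and the only called difference in the family lay in this gene group, so the stretch upstream of each copy is shown first. The 4 stretches are from RefSeq (GRCm38.p6), read 5′ to 3′ along the gene, and lie upstream of the annotated gene start. Capitals mark GAGGAAGT, chosen after these sequences had been read, a purine-rich sequence of the kind that ETS-family factors bind.
Bcl2a1a: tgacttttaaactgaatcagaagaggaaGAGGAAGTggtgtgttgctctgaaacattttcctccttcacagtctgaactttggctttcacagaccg
Bcl2a1b: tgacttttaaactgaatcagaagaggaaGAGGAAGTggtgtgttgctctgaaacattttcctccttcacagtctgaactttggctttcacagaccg
Bcl2a1c: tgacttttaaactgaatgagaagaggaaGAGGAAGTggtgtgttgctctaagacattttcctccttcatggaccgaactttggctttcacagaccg
Bcl2a1d: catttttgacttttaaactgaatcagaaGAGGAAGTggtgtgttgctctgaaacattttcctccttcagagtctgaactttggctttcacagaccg

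These stretches are chr9:88956788-88956883 on the plus strand for Bcl2a1a, chr9:89199097-89199192 on the plus strand for Bcl2a1b, chr9:114329893-114329988 on the plus strand for Bcl2a1c and chr9:88731887-88731982 on the minus strand for Bcl2a1d. Over the 68 bases from the start of the capitals, Bcl2a1b had 0 mismatches to Bcl2a1a, Bcl2a1d had 1 and Bcl2a1c had 6. The capitals start 104 bases before the gene start in Bcl2a1a and Bcl2a1d, 148 before it in Bcl2a1b and 214 before it in Bcl2a1c. Among the 10 members, all with promoter windows, GAGGAAGT was present on either strand for 2 (Bcl2a1a and Bak1), against 3.69% of all 27025 genes with such windows. The match in Bcl2a1a was known when the sequence was chosen, so the count of 2 cannot be read as an excess. The other common ETS-family sequence, CCGGAAGT, which shares the letters GGAAGT with it, was present for 1 (Bcl2l1), against 4.31% of all genes. The windows ran from 250 bases before to 50 bases after each gene start. A match is a description of the letters only.

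The arrays carried the markers of the labelled cell type, and 1 of them sat low on the signal scale. The log2 median over all probe sets was 3.66 on Ets1-/- replicate 1 and lay between 4.19 and 4.33 on the other 5 arrays, and over all genes the median difference, Ets1-/- minus WT, was -0.22 on the log2 scale. The coreceptor genes that define DP cells were bright in both groups, with mean log2 signals in Ets1-/- and WT of 11.08 and 10.94 for Cd4, 10.91 and 11.00 for Cd8a and 11.66 and 11.69 for Cd8b1. Of 9 measured genes listed as DP markers, 1 was called higher (Ptcra, log2 fold change 1.50) and 0 lower, and the median of the list stood at -0.03. Ptcra is not read here as a mark of DP identity. The signal of Ets1 itself was 9.09 ± 0.27 in Ets1-/- and 9.20 ± 0.11 in WT (SD, n = 3 each; limma adjusted p = 0.860). Where its probes lie relative to the deletion is not given, so the genotype labels could not be checked by it, and Ets1-/- below means the arrays that carry this label.

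Among the 9 measured members, Bcl2a1a was higher in Ets1-/- arrays and no other member passed the test. With limma's two-sided test and Benjamini-Hochberg adjustment over all genes, 1 of 9 was called higher and 0 lower, at an adjusted p under 0.05, where 1.86% of all genes were called, 1.29% higher and 0.568% lower. At an unadjusted p under 0.05 the count was 3 of 9 (Bcl2a1a, Bid and Bcl2), where 13.2% of all genes stood. The 3 values of each group did not overlap for 4 of 9 members, against 21.9% of all genes: 2 members, Bcl2a1a and Bcl2, were higher (5.76% of all genes) and 2, Bid and Mcl1, lower (16.1% of all genes), Mcl1 with a sign that turned under median centring. The median log2 fold change of the 9 members was 0.11, or 0.33 above that of all genes. Without Ets1-/- replicate 1, the array with the low median, the median of all genes was -0.022. A change in RNA per cell and a change in the share of cells of a type cannot be told apart in such bulk samples. This holds for higher and for lower signals.

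**Figure D1:**
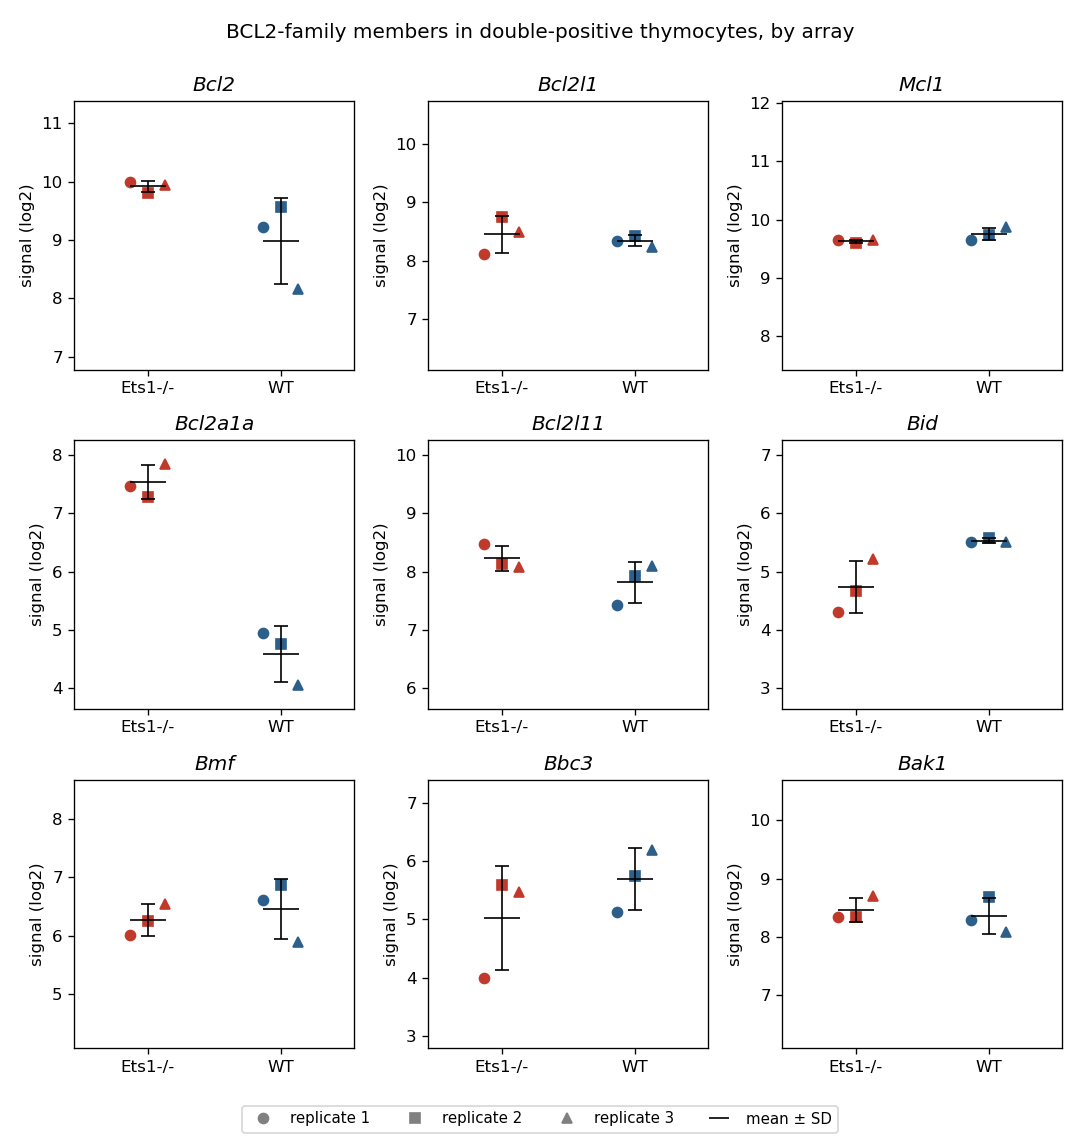
Signal (log2) of the 9 measured members in each array, Ets1-/- left and WT right, with every panel spanning the same height on the log2 scale. Bars give mean ± SD of 3 arrays; for Bcl2a1a the 3 Ets1-/- arrays (7.29 to 7.85) lie well above the 3 WT arrays (4.05 to 4.95).

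Of the 4 death-preventing members, 1 rose, 0 fell and 3 did not pass the test. Bcl2a1a, which encodes the short-lived survival protein A1, had log2 signals of 7.47, 7.29 and 7.85 in Ets1-/- arrays, against 4.95, 4.75 and 4.05 in WT arrays. Every Ets1-/- array lay above every WT array, with a gap of 2.33 between the lowest and the highest. This was a log2 fold change of 2.95 ± 0.31 (SE; 95% interval 2.24 to 3.66; limma adjusted p = 0.00331), which is 7.73-fold (4.73-fold to 12.6-fold) on the linear scale. An exact two-sided permutation test gave p = 0.1, the smallest that 3 arrays against 3 allow. The call was kept in all 16 alternative settings, including each of the 6 fits without 1 array, with adjusted p up to 0.0183.

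Probe sets that cover further copies of Bcl2a1 were higher as well. A probe set that names Bcl2a1a with Bcl2a1b had log2 signals of 8.07, 7.67 and 7.93 in Ets1-/- and 4.95, 5.34 and 4.85 in WT. A probe set that names 3 copies (Bcl2a1a, Bcl2a1b and Bcl2a1d) had 8.85, 8.76 and 8.83 in Ets1-/- and 5.97, 6.25 and 5.77 in WT. In a fit over all 41345 probe sets, in which 0.837% were called, the log2 fold changes of the probe sets naming 1, 2 and 3 copies were 2.95, 2.84 and 2.82 (limma adjusted p = 0.0178, 0.00828 and 0.00647). Bcl2a1c had a dim probe set with 3.44, 3.33 and 4.08 in Ets1-/- and 3.20, 2.82 and 3.19 in WT. Its log2 fold change of 0.55 ± 0.28 (SE) did not pass the test (limma adjusted p = 0.466 over all genes). Since the copies are near-identical, these probes may detect RNA of several, and the value of Bcl2a1a is best read as one of the group of copies.

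**Figure D2:**
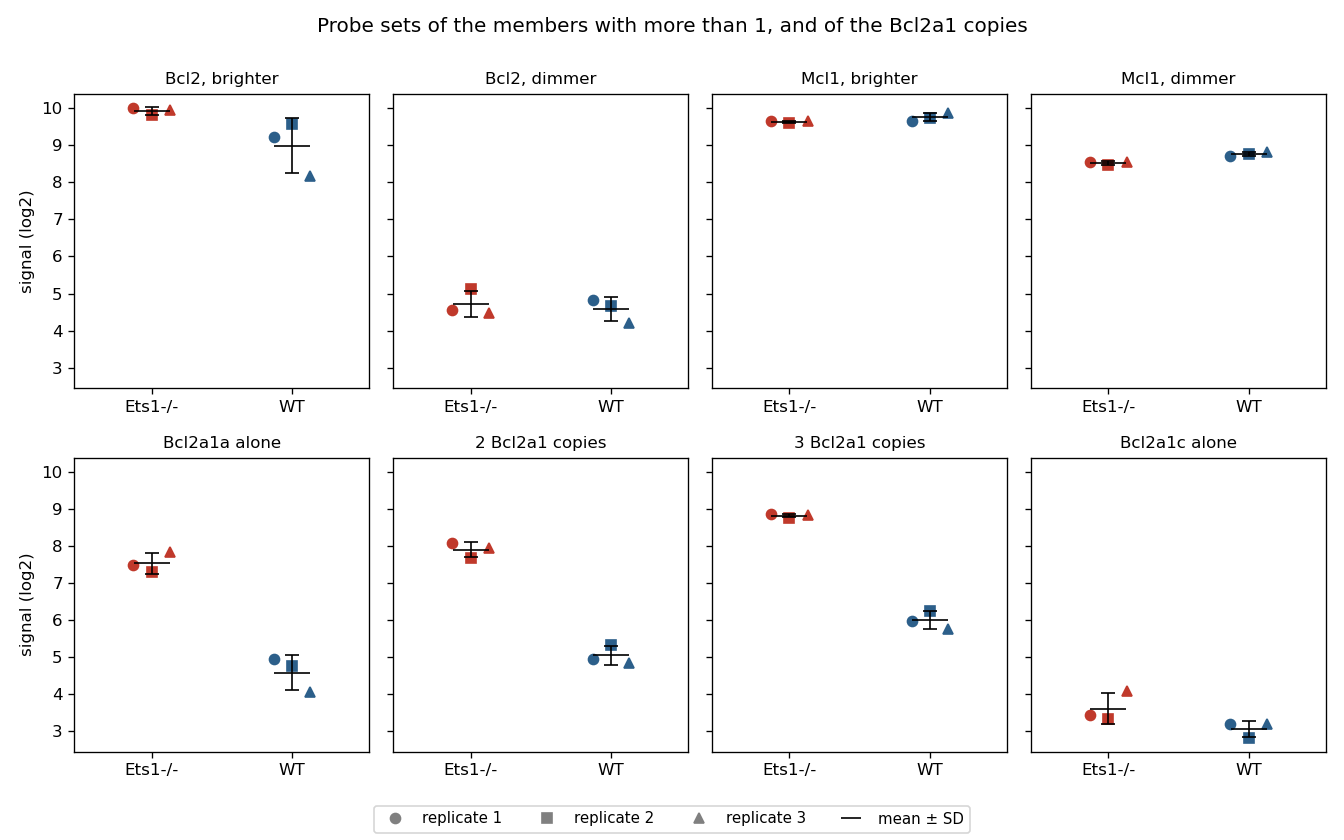
Signal (log2) by array for every probe set of Bcl2 and Mcl1, the members with more than 1, and for the 4 probe sets that name Bcl2a1 copies, Ets1-/- left and WT right with mean ± SD of 3 arrays. The probe sets naming 1, 2 and 3 Bcl2a1 copies all separate by more than 2.3 on the log2 scale, while the Bcl2a1c probe set stays near 3 to 4.

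Markers of other cell types were higher in the same arrays as Bcl2a1a. Of 14 macrophage and monocyte markers, 13 were called higher and 0 lower, and those with the smallest p were the receptor Csf1r (log2 fold change 3.31) and the protease Ctss (2.78). The summed linear signal of these 14 markers was 4686 to 6220 in Ets1-/- arrays, against 814 to 1080 in WT arrays. Of 10 measured dendritic-cell markers 4 were called higher and 0 lower, with summed signals of 2866 to 3184 in Ets1-/- and 410.3 to 466 in WT. These 4 were the integrin Itgax (log2 fold change 3.67) and 3 genes for MHC class II chains, H2-Ab1 (3.65), H2-Eb1 (4.11) and H2-Aa (3.48), all of which macrophages can express too. The remaining 6 missed the threshold, and their log2 fold changes were 0.81 for Siglech, 0.033 for Flt3, -0.19 for Cd209a, -0.25 for Batf3, -0.38 for Zbtb46 and -1.15 for Xcr1. Of 9 measured B-cell markers 4 were called higher and 0 lower (406 to 845 in Ets1-/-, 91.4 to 130 in WT), with log2 fold changes of 3.05 for Fcrla and 6.14 for Ms4a1, which had the smallest p. Ms4a1 had very low log2 signals in WT arrays (0.20, -0.91 and 0.85), so the size of its difference is not fixed by these arrays. The 5 not called were Cd22 (2.59), Cd79b (1.78), Blnk (1.74), Pax5 (1.23) and Cr2 (-0.32). Of 7 plasma-cell markers 3 were higher and 0 lower (785 to 2285 in Ets1-/-, 240.1 to 252 in WT), Jchain and Mzb1 among them. Of 8 cytotoxic and natural killer markers 2 were higher, Gzmb and Nkg7, and 0 lower (584 to 1080 in Ets1-/-, 231 to 346 in WT). The 6 not called had log2 fold changes on both sides of 0. They were 1.24 for Klrd1, 0.81 for Gzma, 0.25 for Eomes, -0.49 for Klrb1c, -0.55 for Ncr1 and -0.56 for Prf1. Of 9 measured mature T-cell genes 5 were higher and 0 lower (1322 to 1555 in Ets1-/-, 372 to 540.2 in WT), including Klf2 and its target S1pr1. In this list 2 genes had log2 fold changes below 0, Ccr7 (-0.07) and Ccr4 (-1.29). The table has no true zero, and 3 of 14 macrophage and 7 of 9 B-cell markers had WT means below the median of all probe sets (4.13). The neutrophil, erythroid, thymic epithelial and stromal lists (8, 3, 7 and 8 measured genes) had 0 genes called. At an unadjusted p under 0.05 they had 1, 0, 0 and 2, against 13.2% of all genes. The part of these cell types in the Bcl2a1a signal was not tested.

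Bcl2, the founding survival gene and the one that mature T cells rely on, was higher in every Ets1-/- array without passing the test over all genes. Its log2 signals were 10.00, 9.81 and 9.95 in Ets1-/- arrays, against 9.22, 9.57 and 8.16 in WT arrays. The groups did not overlap, but WT replicate 3 lay more than 1 below the other WT arrays. This gave a log2 fold change of 0.94 ± 0.37 (SE; 95% interval 0.085 to 1.79; limma unadjusted p = 0.0350, adjusted p = 0.333), which was 0.53 without WT replicate 3 (adjusted p = 0.640). A second, dimmer probe set naming Bcl2 had 4.56, 5.12 and 4.46 in Ets1-/- and 4.83, 4.68 and 4.21 in WT, with overlapping groups and a log2 fold change of 0.14 ± 0.29 (SE). With the mean of both probe sets in place of the brighter one, the log2 fold change of Bcl2 was 0.54 (adjusted p = 0.504).

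Bcl2l1, whose product BCL-XL keeps DP thymocytes alive, had log2 signals of 8.11, 8.75 and 8.48 in Ets1-/- arrays, against 8.34, 8.43 and 8.24 in WT arrays. The Ets1-/- arrays spread to both sides of the WT arrays. The 95% interval of the log2 fold change ran from -0.46 to 0.68 (limma adjusted p = 0.854), so a change of up to 1.60-fold upwards or to 0.729 of the WT level lay inside it.

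Mcl1, which encodes a labile survival protein needed at many lymphocyte stages, had log2 signals of 9.64, 9.59 and 9.64 in Ets1-/- arrays, against 9.66, 9.74 and 9.86 in WT arrays. Its groups did not overlap, by a margin of 0.013, and it stood at a log2 fold change of -0.13 ± 0.21 (SE; 95% interval -0.61 to 0.35; limma adjusted p = 0.806). The second Mcl1 probe set gave 8.56, 8.46 and 8.55 in Ets1-/- and 8.72, 8.76 and 8.81 in WT, again without overlap, with a log2 fold change of -0.24 ± 0.19 (SE; limma adjusted p = 0.659 over all probe sets). With arrays centred on their medians over all probe sets the sign of the brighter probe set turned, to 0.085, so no direction is given for Mcl1.

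Of the 4 BH3-only members, 0 rose and 0 fell by the test; 1 had a positive and 3 a negative log2 fold change. Bcl2l11, which encodes BIM, had log2 signals of 8.48, 8.13 and 8.08 in Ets1-/- arrays, against 7.42, 7.93 and 8.09 in WT arrays. The groups overlapped by 0.013 through WT replicate 3, for a log2 fold change of 0.41 ± 0.26 (SE; 95% interval -0.20 to 1.03; limma adjusted p = 0.555). Relative to each array's median over genes the Bcl2l11 values were 4.74, 3.71 and 3.73 in Ets1-/- and 3.13, 3.59 and 3.68 in WT. WT replicate 1 held the lowest of the 6 values, and without it the log2 fold change was 0.22 (limma adjusted p = 0.804).

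Bid, whose product links death receptors to the mitochondrion once it is cut by caspase-8, was dimmer, with 4.32, 4.68 and 5.21 in Ets1-/- arrays and 5.52, 5.59 and 5.50 in WT arrays. All 3 Ets1-/- arrays lay below the WT arrays, which were within 0.1 of each other. Bid thus had a log2 fold change of -0.80 ± 0.28 (SE; 95% interval -1.44 to -0.16; limma unadjusted p = 0.0206, adjusted p = 0.263). After subtraction of each array's median over genes it was -0.62 and the groups still did not overlap, at 0.58, 0.26 and 0.87 in Ets1-/- and 1.23, 1.25 and 1.09 in WT. With medians over all probe sets subtracted instead, the log2 fold change of Bid was -0.59.

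Bbc3, the PUMA gene and a target of p53, had 4.00, 5.59 and 5.47 in Ets1-/- arrays, against 5.13, 5.74 and 6.19 in WT arrays. Its log2 fold change of -0.67 ± 0.47 (SE; limma adjusted p = 0.586) rested mostly on Ets1-/- replicate 1, the array with the low median, and was -0.16 without it. Bmf, whose product is held at the motor complexes of the cytoskeleton until released, had 6.00, 6.25 and 6.55 in Ets1-/- arrays, against 6.62, 6.87 and 5.88 in WT arrays. Its groups overlapped throughout, with a log2 fold change of -0.19 ± 0.31 (SE; limma adjusted p = 0.811) whose sign turned with median centring, cyclic loess or the omission of WT replicate 2.

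Bak1, the only effector measured, had 8.34, 8.34 and 8.71 in Ets1-/- arrays, against 8.29, 8.69 and 8.09 in WT arrays. The ranges overlapped almost fully, and the 95% interval of the log2 fold change, -0.48 to 0.70, allows up to 1.62-fold upwards or down to 0.717 of the WT level (estimate 0.11; limma adjusted p = 0.865).

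**Figure D3:**
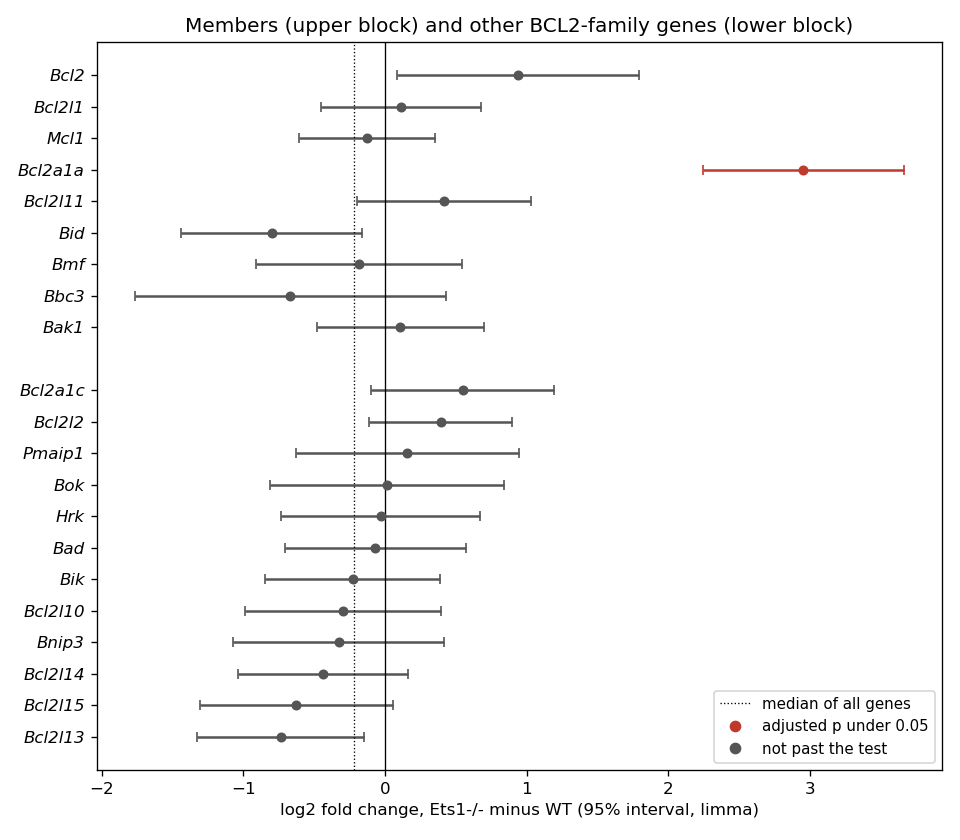
Log2 fold change, Ets1-/- minus WT, with limma's 95% interval, for the 9 measured members (upper block) and the 12 other measured BCL2-family genes (lower block); the dotted line is the median of all genes (-0.22). Only Bcl2a1a, at 2.95, is past an adjusted p of 0.05.

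The relation of protective to death-promoting members was described within each array, where a shift common to all probe sets cancels. A shift that depends on signal level does not cancel. On Ets1-/- replicate 1, the array with the low median, Bcl2 (10.00) was at its brightest, while Bid (4.32) and Bbc3 (4.00) were at their dimmest. On the same array the protective Bcl2l1 (8.11) was at its dimmest and the death-promoting Bcl2l11 (8.48) at its brightest. Bcl2, Bcl2l1 and Mcl1 are brighter than Bid, Bmf and Bbc3. Bcl2l11 and Bak1 (means over all arrays 8.02 and 8.41) lie near Bcl2l1 (8.39). The part of a level-dependent shift in these differences was not tested. The absolute size of such a difference has no meaning across probe sets, and only its change between arrays is read. The mean of Bcl2, Bcl2l1 and Mcl1 minus the mean of the 5 death-promoting members measured (Bcl2l11, Bid, Bmf, Bbc3 and Bak1) was 3.03, 2.79 and 2.56 in Ets1-/- arrays, against 2.48, 2.28 and 2.0 in WT arrays. The Ets1-/- arrays were all higher, by 0.53 on average, with SDs of 0.23 and 0.24. With Bcl2a1a added the values were 2.58, 2.26 and 2.18 in Ets1-/- and 1.45, 1.16 and 0.83 in WT, a difference of 1.19. These means of members were formed after the values had been seen and carry no test. The highest of each lay on Ets1-/- replicate 1, where Bid and Bbc3 were dimmest.

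Single protective and BH3-only genes did not all move together. Bcl2 minus Bcl2l11 was 1.53, 1.68 and 1.87 in Ets1-/- arrays, against 1.80, 1.64 and 0.069 in WT arrays. It overlapped between the groups, and only WT replicate 3 stood apart. Mcl1 minus Bcl2l11 was 1.17, 1.46 and 1.57 in Ets1-/- arrays, against 2.24, 1.81 and 1.77 in WT arrays. It was lower in all Ets1-/- arrays, by 0.54, opposite in sign to the mean over members. Bcl2 minus Bcl2l1, the survival genes of the mature and the DP stage, was 1.89, 1.06 and 1.46 in Ets1-/- arrays, against 0.88, 1.14 and -0.081 in WT arrays, and overlapped through WT replicate 2. Bcl2l1 minus Bak1 averaged -0.014 ± 0.37 in Ets1-/- and -0.018 ± 0.21 in WT (SD, n = 3 each).

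**Figure D4:**
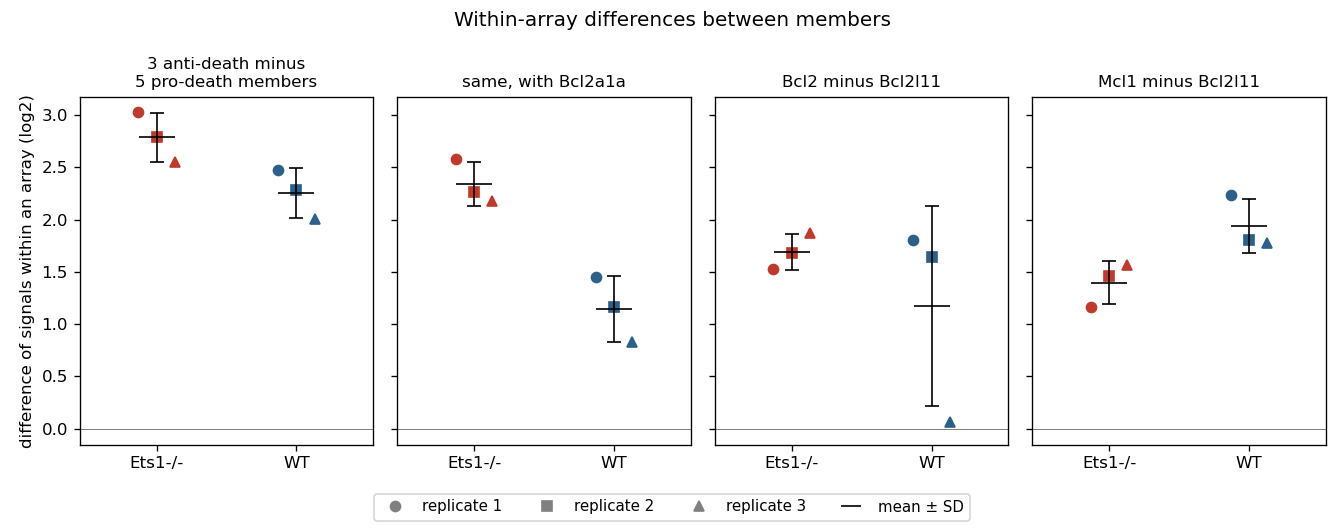
Differences of log2 signal between members within each array, Ets1-/- left and WT right, with mean ± SD of 3 arrays. The mean of 3 protective members minus 5 death-promoting members is 2.56 to 3.03 in Ets1-/- and 2.0 to 2.48 in WT, while Mcl1 minus Bcl2l11 runs the other way (1.17 to 1.57 in Ets1-/-, 1.77 to 2.24 in WT).

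The rest of the family and its surroundings held 0 called genes. Of 12 other BCL2-family genes measured, 0 rose and 0 fell, with 1 at an unadjusted p under 0.05, where 13.2% of all genes stood. Their median log2 fold change was -0.15 against -0.22 for all genes. In both groups, 7 of the 12 lay below the median signal of all probe sets. The smallest p belonged to Bcl2l13, a mitophagy receptor, at -0.74 ± 0.25 (SE; limma adjusted p = 0.263), followed by Bcl2l15 at -0.63 and Bcl2a1c at 0.55.

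Of 18 measured partners and turnover factors of BCL2 proteins, 0 rose and 0 fell, with a median of 0.02. At an unadjusted p under 0.05 there were 3, near the 13.2% of all genes. Fbxw7, the substrate-binding part of a ubiquitin ligase that marks MCL1 for destruction, had 7.60, 8.14 and 8.10 in Ets1-/- arrays, against 7.0, 7.22 and 6.72 in WT arrays. Its groups did not overlap, and its log2 fold change was 0.97 ± 0.26 (SE; limma adjusted p = 0.141). It passed the test in 7 of 16 alternative settings, with values of 0.84 to 1.18 and adjusted p of 0.00549 to 0.403. Bag3, a co-chaperone that binds BCL2, stood at 0.77 ± 0.27 (SE; limma adjusted p = 0.272) and passed the test in 1 of 16 alternative settings. Bcl2l13, which is also counted among the further family members, was the third gene at an unadjusted p under 0.05, at -0.74 ± 0.25 (SE).

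Downstream of the mitochondrion, 16 measured genes of the apoptosome step (cytochrome c, APAF1, caspases and the inhibitors of apoptosis) had 0 that rose and 0 that fell. Their median was -0.05, and 3 stood at an unadjusted p under 0.05, against 13.2% of all genes. Birc5, which encodes survivin and is also a gene of dividing cells, had the smallest p, at -1.11 ± 0.30 (SE; limma adjusted p = 0.141), with 6.69, 7.38 and 7.53 in Ets1-/- arrays and 8.56, 8.34 and 8.02 in WT arrays. The caspase inhibitor Xiap stood at -0.54 and Birc2, which encodes cIAP1, at 0.56, and neither passed the test (adjusted p = 0.353 and 0.308).

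Among 36 measured genes that feed survival signals into the family (cytokine receptors, STAT, NF-kB, FOXO, E-protein and nuclear receptor genes), 0 rose and 0 fell. Their median was -0.07, and 5 stood at an unadjusted p under 0.05, near the 13.2% of all genes. The 3 with the smallest p were Il7r, Nr4a1 and Il2rb. Il7r, the receptor through which interleukin-7 raises BCL2 in mature T cells, had 7.33, 5.98 and 6.69 in Ets1-/- arrays, against 5.25, 4.64 and 4.11 in WT arrays (log2 fold change 2.0 ± 0.42 SE; limma adjusted p = 0.0663). Nr4a1, a nuclear receptor induced by strong T-cell receptor signals, had 5.62, 6.27 and 6.20 in Ets1-/- arrays, against 6.89, 7.09 and 6.91 in WT arrays, and a log2 fold change of -0.93 ± 0.25 (SE; limma adjusted p = 0.149). Il2rb, a receptor chain shared by interleukin-2 and interleukin-15, had 6.53, 6.47 and 6.45 in Ets1-/- arrays, against 2.95, 4.79 and -0.55 in WT arrays (limma adjusted p = 0.159). Its lowest value was on WT replicate 3, as for Bcl2, and its WT mean of 2.40 lay below the median of all probe sets, so the size of its difference is not fixed by these arrays. Its log2 fold change was 4.08 ± 1.14 (SE) over all 6 arrays, 2.61 without WT replicate 3 (adjusted p = 0.0868), 5.28 without WT replicate 2 (adjusted p = 0.0411) and 2.03 after adding a pseudocount of 16 (adjusted p = 0.00886). Over the 16 alternative settings Il7r passed the test in 6, Nr4a1 in 5 and Il2rb in 3, each with 1 sign throughout. The 5 genes at an unadjusted p under 0.05 also included Stat3 (log2 fold change 0.74; limma adjusted p = 0.235) and Egr2 (0.69; limma adjusted p = 0.295). Both were called higher in some alternative settings, among them the trend with robust prior.

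The genes most like Bcl2 over the 6 arrays, among 11089 brighter genes, were Hsdl1, Il2rb and Cxcr6, with Pearson r of 0.996, 0.991 and 0.989. For Bcl2l1 they were Sh3bp2, Commd10 and Chd7 (r of 0.995, 0.989 and 0.986), and for Bcl2a1a S1pr1, P2rx7 and Pld4 (r of 0.998 for each). These are descriptions over 6 points that share 2 groups and the array medians. In all, 28 genes had an r above 0.99 with Bcl2a1a, 2 with Bcl2 and 1 with Bcl2l1.

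**Figure D5:**
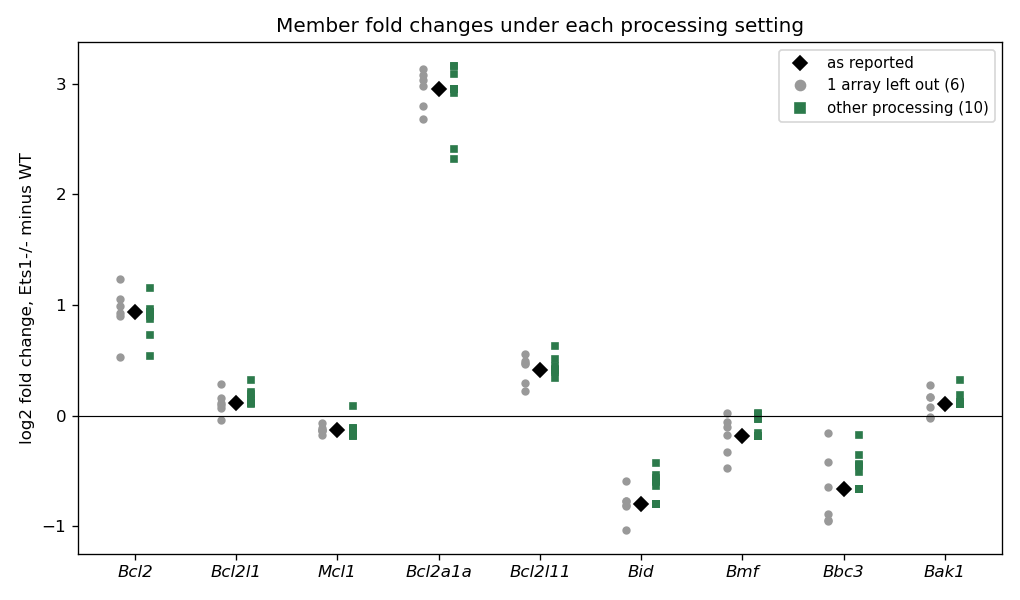
Log2 fold change of each measured member, Ets1-/- minus WT, as reported (diamonds), with 1 array left out (6 fits, circles) and with other processing (10 fits, squares). Bcl2a1a stays between 2.32 and 3.16, and Bcl2l1, Mcl1, Bmf and Bak1 fall on both sides of 0.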

How the data were processed

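Total RNA was hybridised to 6 Affymetrix arrays with 1 colour, 3 per genotype. The deposited values are log2 signals per probe set; the log2 scale was read from their range (-15.86 to 16.36). Per the submitters' processing notes the authors used affy; the sources used here give no version, background correction, normalization, scan date or batch. Probe sets were named through the platform annotation (23521 name 1 gene, 1814 several, 16010 none used here), symbols were checked against RefSeq GRCm38.p6 (23328 matched, 0 updated), and each gene took its brightest probe set without a filter on dim signals. Ets1-/- minus WT was fitted on all 22180 genes with limma 3.58.1 in R 4.3.3 (lmFit, eBayes; Benjamini-Hochberg threshold 0.05), and SE is limma's moderated error. The fit was tested on simulated data. Tables and figures used Python 3.11.15, matplotlib 3.10.9, numpy 2.4.6 and pandas 2.3.3. What the p-values reflect is the spread between these arrays, whose number limits precision. Members and lists were chosen with earlier results of these data known. Named genes are the members, Ets1, the 3 smallest p and every call in each pathway list, the 2 smallest p in marker lists with calls, and 3 likest genes for Bcl2, Bcl2l1 and Bcl2a1a. Stat3 and Egr2, under an unadjusted p of 0.05 in their list, and some further markers are named too. Alternatives were the mean of probe sets, a median signal filter, quantile, median and cyclic loess normalization, trend with robust prior and array weights. Further alternatives were a pseudocount of 16 (alone and before quantile normalization), a replicate block and leaving out each array.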

Additional observations from a re-analysis of the deposited data

How the results depend on the processing

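Of the 9 members, 1 (Bcl2a1a) was called in all 16 alternatives, and 0 others were; its log2 fold change ran from 2.32 to 3.16. The signs of Bcl2, Bcl2l11, Bid and Bbc3 held in all 16, with ranges of 0.53 to 1.23, 0.22 to 0.63, -1.04 to -0.43 and -0.95 to -0.16, and adjusted p of at least 0.0885. Signs turned for 7 of 144 member values, in genes that never passed the test: Mcl1 (0.085) and Bmf (0.025) with median centring, Bmf with cyclic loess (0.0098) and without WT replicate 2 (0.019), Bak1 without WT replicate 3 (-0.026) or Ets1-/- replicate 3 (-0.013), and Bcl2l1 without Ets1-/- replicate 2 (-0.039). Leaving out single arrays gave -0.039 to 0.28 for Bcl2l1, -0.026 to 0.27 for Bak1 and -0.47 to 0.019 for Bmf. The number of genes called over the whole table was 413 as reported (287 higher, 126 lower). It was 798 with quantile normalization, 745 with median centring, 777 with cyclic loess and 1019 with array weights. It was 1172 with the trend and robust prior (618 higher, 554 lower). Adding a pseudocount of 16 gave 907 (484 higher, 423 lower), and quantile normalization after that step gave 1355 (757 higher, 598 lower). The cause of these differences was not tested. Leaving out 1 array gave 190 to 379 calls: 262, 261 and 247 when WT replicate 1, 2 or 3 was dropped, and 379, 190 and 264 when Ets1-/- replicate 1, 2 or 3 was. Same-numbered arrays did not deviate together (correlations of deviations -0.080, -0.076 and -0.16). With 3 arrays per group this cannot settle whether the replicate numbers pair litter mates. With the replicate block 311 genes and 1 member were called. Dim signals such as those of Bid and Bbc3 limit what could be seen.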
